A study of Drosophila melanogaster with 36 samples.

Results

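The effect of methyl methanesulfonate (MMS) on transcript levels was compared between 24 and 72 h of exposure in Kc167 cells, a Drosophila melanogaster line that was derived from embryos and resembles hemocytes, the blood cells of the fly. The 16 arrays used for this were those of 4 groups of 4 (MMS 24 h, Control 24 h, MMS 72 h and Control 72 h), out of 36 arrays in the series. Plated cells were given new medium, with MMS at 40 µg/mL or without it, and RNA was taken at the stated time after that change. The submitters describe 4 separately grown cultures, and do not say whether arrays of the same number at different times share a culture. Control cultures received the same medium change without MMS, so every group carries the effect of new medium and of time in culture. Levels are RMA values on the log2 scale, where 1 unit is a 2-fold difference, and 11983 genes were tested.

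MMS transfers methyl groups to DNA bases and to other nucleophiles of the cell, including the thiol of glutathione. Cells remove such reactive compounds with glutathione S-transferases, cytochrome P450 enzymes and UDP-glycosyltransferases, repair the methylated bases, and slow the cell cycle through checkpoint signalling. A difference between treated and control cultures of the same age, called the MMS effect here, can shrink for opposite reasons of arithmetic, either because treated cultures return towards controls or because controls move towards treated cultures. The change of the MMS effect was therefore split into the MMS arm (MMS 72 h minus MMS 24 h) and the control arm (Control 72 h minus Control 24 h). The change equals the MMS arm minus the control arm. These arms were measured on different arrays.

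A gene was counted as changed at a Benjamini-Hochberg adjusted p under 0.05 from limma and a difference of at least 1 on the log2 scale. The MMS effect changed for 441 genes (3.68% of all genes tested). It was higher at 72 h than at 24 h for 331 genes (2.76%) and lower for 110 genes (0.918%). The p-values measure the spread between arrays, whose number sets the precision. In bulk RNA, fewer cells of a type and less RNA per cell cannot be told apart. At the adjusted p alone the counts were 1094 higher and 543 lower. These are 9.13% and 4.53% of all genes, the shares beside which the list counts at the adjusted p alone stand. When each array was centred on its own median over all genes, the counts were 257 higher and 160 lower, so that 61.6% of the calls were higher in place of 75.1%. That centring moved the median change of all genes to -0.12, from -0.02, and the median of the MMS arm to -0.25, from -0.07.

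Treated cultures moved more than controls. Between 24 and 72 h, 689 genes rose and 339 fell in the MMS arm (5.75% and 2.83% of all genes), while 357 rose and 346 fell in the control arm (2.98% and 2.89%). The genes that fell were largely shared, since 221 genes fell in both arms, which is 65.2% of those of the MMS arm and 63.9% of those of the control arm. The genes that rose were shared to a smaller part, with 199 in both, or 28.9% of those of the MMS arm and 55.7% of those of the control arm. Only 5 genes were called in both arms in opposite directions. As the change is the MMS arm minus the control arm, a change beyond 2-fold in these follows by arithmetic.

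**Figure D1:**
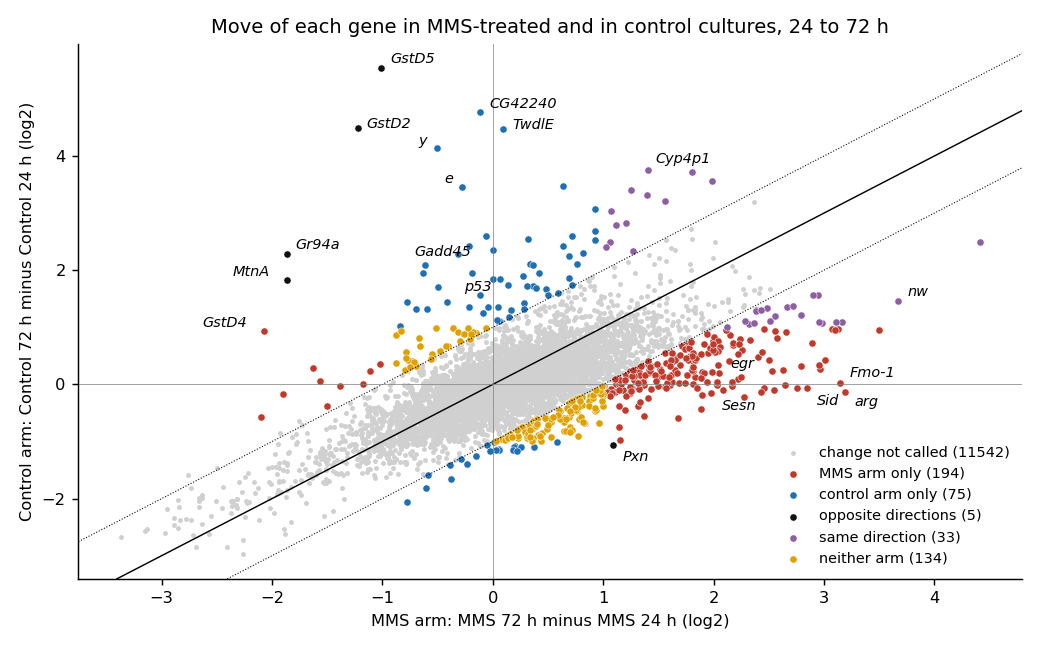
The MMS arm (MMS 72 h minus MMS 24 h, log2, x axis) is plotted against the control arm (Control 72 h minus Control 24 h, log2, y axis) for every gene, each point 1 gene coloured by the arm that moved at least 2-fold, with grey for genes whose change was not called. The solid line marks equal moves and the dotted lines a change of 1, and the genes above the upper line include GstD5, with 5.54 in the control arm and -1.01 in the MMS arm.

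Genes whose effect was higher at 72 h and genes whose effect was lower differed in the arm that moved. Higher includes negative effects that shrank, and lower includes negative effects that grew. Of the 331 genes whose effect was higher at 72 h, 184 (55.6%) moved at least 2-fold in the MMS arm only and 21 (6.34%) in the control arm only. Of the 110 genes whose effect was lower at 72 h, 10 (9.09%) moved in the MMS arm only and 54 (49.1%) in the control arm only. The count of 10 was 24 with each array centred, and 24 after a further quantile normalization. Both arms rose, by unequal amounts, for 21 of the higher and 12 of the lower genes. Neither arm reached 2-fold for 104 of the higher and 30 of the lower genes, whose change was made of smaller opposite moves with medians of 0.62 and -0.62 for the higher genes and -0.56 and 0.67 for the lower genes (MMS arm, then control arm). With each gene given to its larger arm, a choice made after seeing the data, the MMS arm led for 254 and the control arm for 77 of the higher genes, against 24 and 86 of the lower genes. These counts come from the same 16 arrays that chose the genes and are given as a description.

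**Figure D2:**
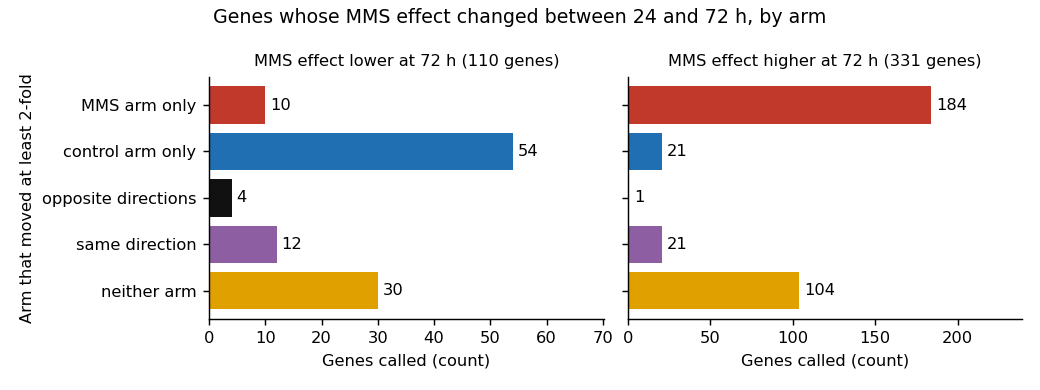
Bars count the genes called for the change of the MMS effect, by the arm that moved at least 2-fold between 24 and 72 h, for effects that were lower (left) and higher (right) at 72 h. The longest bars are the control arm (54 genes) on the left and the MMS arm (184 genes) on the right.

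The largest loss of an MMS effect lay in the delta glutathione S-transferases, enzymes that join glutathione to electrophiles. GstD5 read 12.57, 12.54, 12.92 and 12.96 in the MMS 24 h cultures, against 6.29, 6.74, 7.30 and 7.15 in the Control 24 h cultures. Its 72 h readings were 11.52, 11.78, 11.95 and 11.68 in MMS cultures, against 12.55, 12.23, 12.58 and 12.26 in controls. Every control array at 72 h therefore lay above every treated array, where at 24 h the order was the reverse. The control arm was 5.54 ± 0.18 and the MMS arm -1.01 ± 0.18 (log2 ± SE, n = 4 arrays per group), and the change of the effect was -6.55 ± 0.26 (limma adjusted p = 5.29e-19), which is 93.8-fold.

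GstD2 followed the same course and ended below controls. It read 9.65, 9.50, 10.32 and 10.33 in MMS 24 h cultures, against 6.19, 6.30, 6.62 and 6.55 in Control 24 h cultures. By 72 h the readings were 8.64, 8.63, 9.05 and 8.57 in MMS cultures, against 11.23, 10.90, 11.14 and 10.39 in controls. The groups did not overlap at either time, and the MMS effect was 3.53 at 24 h and -2.19 at 72 h (change -5.73 ± 0.26, limma adjusted p = 2.38e-17). GstD6 differed in that its MMS 72 h arrays (5.46 to 6.68) overlapped its Control 72 h arrays (5.84 to 6.40). Its control arm was 2.09 and its MMS arm -0.61.

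GstD4 was the member in which treated cultures moved most. It read 7.74, 7.83, 8.26 and 8.45 in MMS 24 h cultures, against 4.42, 4.57, 4.63 and 4.80 in Control 24 h cultures. The 72 h arrays gave 5.87, 5.97, 6.21 and 5.93 in MMS cultures, against 5.63, 5.47, 5.79 and 5.30 in controls. The treated arrays fell by 2.08 and the controls rose by 0.94, just under the 2-fold threshold (change -3.01 ± 0.21, limma adjusted p = 6.86e-13). In GstD10, chosen after its values were seen, both arms rose, by 0.63 in the MMS arm and 2.42 in the control arm.

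Over the 11 delta members measured, 7 had a lower and 0 a higher MMS effect at 72 h at the adjusted p alone (4.53% and 9.13% of all genes), and at an unadjusted p under 0.05 the limma counts were 9 and 0 (9.71% and 14.6% of all genes). The median change was -1.19, against -0.02 for all genes. In the MMS arm 9 of the 11 fell and 2 rose (19.9% and 22.3% of all genes at the adjusted p alone), and in the control arm 7 rose and 1 fell (15.0% and 14.9%). The mean level of the 11 genes was 9.38, 9.29, 9.64 and 9.68 on the MMS 24 h arrays, against 7.33, 7.42, 7.61 and 7.58 on the Control 24 h arrays. At 72 h that mean was 8.76, 8.85, 8.95 and 8.76 in MMS cultures, against 8.92, 8.83, 9.02 and 8.79 in controls, so the groups overlapped. Delta members are close copies of each other, and whether their probe sets share signal was not tested.

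The epsilon class of the same family changed less, with 5 of 13 members lower and 1 higher at the adjusted p alone and a median change of -0.34. GstE7 moved by less than 2-fold in each arm and still lost its effect. It read 12.63, 12.48, 13.15 and 13.05 in MMS 24 h cultures, against 10.84, 11.03, 11.41 and 11.21 in Control 24 h cultures. After 72 h the values were 11.87, 12.13, 11.96 and 11.86 in MMS cultures, against 12.13, 11.82, 12.05 and 11.95 in controls, and the groups overlapped. The MMS arm was -0.87 and the control arm 0.86 (change -1.74 ± 0.25, limma adjusted p = 2.84e-06). In GstE9 the arms were -0.52 and 0.98. Gclc, the catalytic subunit of the enzyme that begins glutathione synthesis, chosen after its values were seen, rose by 1.05 in the control arm and had 0.11 in the MMS arm, with a change of -0.93 ± 0.20 that did not reach 2-fold.

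A P450 and several UDP-glycosyltransferases rose in treated cultures while controls rose further. Cyp4p1, a cytochrome P450, read 9.44, 9.35, 9.95 and 10.14 in MMS 24 h cultures, against 6.15, 6.17, 6.48 and 6.16 in Control 24 h cultures. At 72 h it read 11.04, 11.01, 11.38 and 11.08 in MMS cultures, against 10.12, 9.93, 10.29 and 9.65 in controls. Treated arrays stayed above all control arrays, while the MMS effect was 3.48 at 24 h and 1.13 at 72 h (change -2.35 ± 0.25, limma adjusted p = 1.88e-08). The UDP-glycosyltransferase Ugt302K1, which belongs to the enzymes that attach sugars to lipophilic compounds, rose by 1.81 in the MMS arm and by 3.72 in the control arm. Ugt49C1 rose by 0.92 and 2.68 and Ugt37C2 by 1.02 and 2.41 (MMS arm, then control arm).

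As families these enzymes did not move one way. Of 35 UDP-glycosyltransferases 4 had a higher and 7 a lower MMS effect at 72 h at the adjusted p alone, and of the 37 P450 genes of clan 3 the counts were 7 and 7, with median changes of -0.11 and -0.06. Cyp28a5 stood at the lower end of the clan. It read 6.48, 6.56, 6.67 and 6.55 in MMS 24 h cultures, against 5.34, 5.37, 5.34 and 5.25 in Control 24 h cultures. Its 72 h readings were 7.24, 6.97, 7.22 and 7.36 in MMS cultures, against 8.95, 8.90, 8.92 and 8.40 in controls, so the order of the groups was reversed without overlap (change -2.83 ± 0.18, limma adjusted p = 6.21e-14).

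At the upper end of clan 3 the P450 genes were induced late and in treated cultures. Cyp6a14 read 8.42, 8.03, 7.93 and 8.55 in MMS 72 h cultures, against 6.28, 5.92, 6.48 and 6.47 in Control 72 h cultures, while its 24 h arrays lay between 6.09 and 6.50 in both groups. Its change was 1.91 ± 0.19 (limma adjusted p = 3.28e-09). Cyp6a2, a P450 known for its induction by foreign compounds, had an MMS arm of 1.58 and a control arm of 0.03. Cyp6w1 and Cyp6a13, chosen after their values were seen, had MMS arms of 1.68 and 1.89 and control arms of -0.60 and -0.18.

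Stress and damage signalling genes showed both patterns. Gadd45, a stress sensor upstream of p38 and JNK kinases in mammals, read 11.14, 10.97, 11.45 and 11.41 in MMS 24 h cultures, against 8.27, 8.43, 8.82 and 8.63 in Control 24 h cultures. By 72 h the readings were 11.07, 11.28, 11.52 and 11.12 in MMS cultures, against 10.97, 10.92, 10.90 and 10.77 in controls. The means of treated cultures at both times differed by 0.00 ± 0.12, and controls rose by 2.35 ± 0.12, which left an effect of 0.36 at 72 h against 2.70 at 24 h. The change was -2.35 ± 0.18 (limma adjusted p = 5.39e-12).

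The transcript of p53, the transcription factor at the centre of the damage response, read 11.39, 11.31, 11.65 and 11.57 in MMS 24 h cultures, against 9.99, 9.92, 10.33 and 10.08 in Control 24 h cultures. The 72 h arrays gave 11.54, 11.60, 11.69 and 11.64 in MMS cultures, against 11.90, 11.83, 11.87 and 11.66 in controls, and the groups overlapped. The control arm was 1.74 ± 0.11 and the MMS arm 0.13 ± 0.11 (change -1.60 ± 0.16, limma adjusted p = 3.58e-09). The gene has 2 probe sets, and with their mean in place of the brighter one the change was -0.60 (limma adjusted p = 0.000259), under the 2-fold threshold. Traf4, an adaptor of the Eiger and JNK pathway, rose by 1.20 in the MMS arm and 2.83 in the control arm, and its change of -1.63 became -0.77 with the mean of its 2 probe sets.

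Eiger itself, the tumour necrosis factor ligand of the fly, took the opposite course. The gene egr read 7.89, 7.96, 7.75 and 7.66 in MMS 24 h cultures, against 5.53, 5.61, 5.35 and 5.60 in Control 24 h cultures. After 72 h the values were 10.01, 9.80, 10.14 and 10.31 in MMS cultures, against 5.54, 5.60, 5.89 and 5.57 in controls. Controls held their level (control arm 0.13 ± 0.12) and treated cultures rose by 2.25 ± 0.12, so that the MMS effect was 2.30 at 24 h and 4.41 at 72 h (change 2.12 ± 0.17, limma adjusted p = 3.84e-11).

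Sesn, a stress-induced regulator of TOR signalling, was chosen after its values were seen, as 1 of the 2 genes called lower at 24 h and higher at 72 h. It read 6.41, 6.32, 5.83 and 5.31 in MMS 24 h cultures, against 7.81, 7.70, 7.02 and 7.50 in Control 24 h cultures. At 72 h it read 8.52, 8.30, 8.28 and 8.50 in MMS cultures, against 7.19, 7.30, 7.19 and 7.82 in controls. The groups did not overlap at either time and the order reversed (change 2.56 ± 0.29, limma adjusted p = 4.56e-08). Meltrin, an ADAM metalloprotease, was the other such gene, with an effect of -1.04 at 24 h and 1.25 at 72 h, and in both genes the move lay in the MMS arm (2.43 and 2.53). Over all 23 genes of the list of p53, checkpoint kinases and apoptosis, 5 had a higher and 6 a lower effect at 72 h at the adjusted p alone, with 3 and 9 under centring and 5 and 9 under a further quantile normalization, and the median change of 0.09 was -0.01 and -0.02 under these scalings.

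The list of DNA repair genes had no direction that held under each scaling. Of 36 genes 6 were higher and 4 lower with a median change of 0.05, while 5 were higher and 8 lower under centring (median -0.05), and 2 were higher and 9 lower under a further quantile normalization (median -0.06). The member with the lowest change was agt, the protein that takes alkyl groups off guanine. It read 11.95, 11.91, 12.07 and 11.94 in MMS 24 h cultures, against 10.67, 10.78, 10.87 and 10.83 in Control 24 h cultures. Its 72 h readings were 11.33, 11.34, 11.27 and 11.22 in MMS cultures, against 11.05, 10.98, 11.11 and 11.06 in controls. The treated level stayed above controls on every array, but the effect was 1.18 at 24 h and 0.24 at 72 h, where it was not called (limma adjusted p = 0.193). The change of -0.94 ± 0.20 (limma adjusted p = 0.000694) did not reach 2-fold, with -0.68 in the MMS arm and 0.26 in the control arm. It was -1.04 under centring, past that threshold.

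Hsp26, a small heat-shock protein that holds unfolded proteins in solution, lost part of its effect from both sides. It read 13.88, 13.82, 14.19 and 14.05 in MMS 24 h cultures, against 9.99, 10.04, 10.30 and 10.23 in Control 24 h cultures. By 72 h the readings were 13.10, 13.13, 13.33 and 13.05 in MMS cultures, against 11.13, 10.90, 11.16 and 11.09 in controls. Treated arrays remained far above controls, with an effect of 2.08 at 72 h against 3.84 at 24 h (change -1.76 ± 0.20, limma adjusted p = 3.50e-08). Hsp27, of the same family, had an effect of 1.12 at 72 h against 1.93 at 24 h. Another member, l(2)efl, was chosen after its values were seen, and had no called effect at 24 h (0.33, limma adjusted p = 0.154), an MMS arm of -0.98 and a control arm of -0.20. In the list of 11 heat-shock proteins and co-chaperones 3 had a lower and 0 a higher effect at the adjusted p alone (5 and 1 at an unadjusted p under 0.05), with 5 lower and 1 higher under a further quantile normalization.

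**Figure D3:**
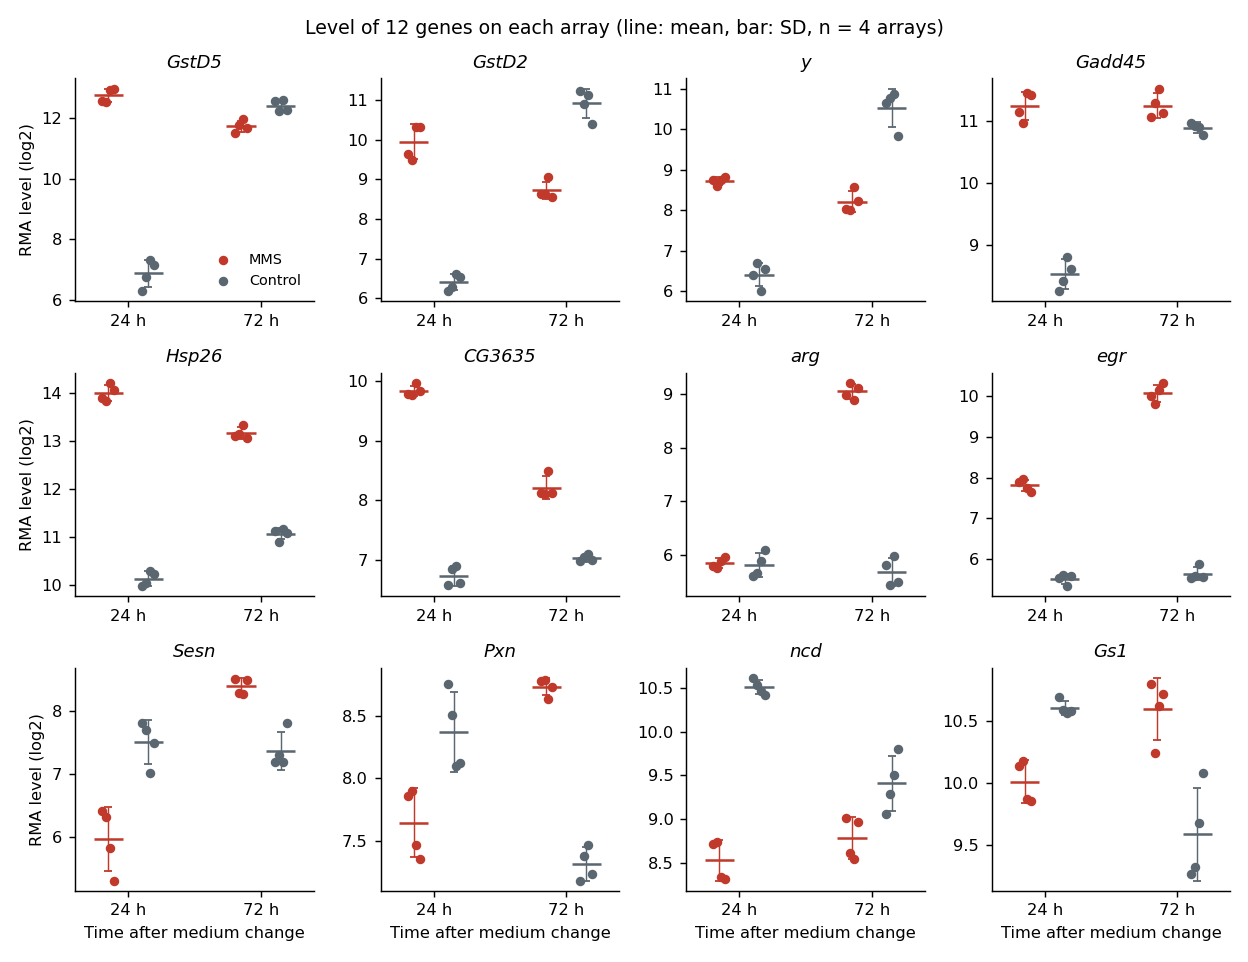
The log2 RMA level of 12 genes is shown on each of the 16 arrays, with MMS arrays left of control arrays at 24 h and at 72 h, and with the mean (line) and SD (bar) of 4 arrays. GstD5, GstD2, y and Gadd45 show control arrays rising towards or above the treated arrays, arg and egr show treated arrays rising alone, and ncd shows control arrays falling towards the treated arrays. The y axes differ between panels and do not start at 0.

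Of the 110 genes whose effect was lower at 72 h, 10 moved at least 2-fold in the treated arm alone. That count was 24 under centring and 24 after a further quantile normalization. The 3 named here kept part of their effect. CG3635, which the files name by its number only, read 9.78, 9.77, 9.96 and 9.84 in MMS 24 h cultures, against 6.57, 6.85, 6.90 and 6.60 in Control 24 h cultures. The 72 h arrays gave 8.12, 8.11, 8.49 and 8.12 in MMS cultures, against 6.97, 7.04, 7.09 and 6.99 in controls. The groups did not overlap at either time, and the MMS arm was -1.63 ± 0.11 beside a control arm of 0.29 ± 0.11 (change -1.92 ± 0.16, limma adjusted p = 6.32e-11). CG10005 had an MMS arm of -1.90 and a control arm of -0.17, and kept an effect of 1.18 at 72 h. Lst, the peptide hormone limostatin, had an MMS arm of -1.57 and a control arm of 0.06, and kept an effect of 1.45 at 72 h.

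Reversals also occurred in 3 pigment and cuticle genes that rose in controls. The gene y (yellow), needed for black melanin, read 8.74, 8.60, 8.74 and 8.82 in MMS 24 h cultures, against a mean of 6.40 ± 0.29 (SD, n = 4) in Control 24 h cultures. After 72 h the values were 8.03, 8.00, 8.58 and 8.24 in MMS cultures, against 10.66, 10.77, 10.89 and 9.85 in controls. The groups did not overlap at either time, and the effect was 2.32 at 24 h and -2.33 at 72 h (change -4.65 ± 0.25, limma adjusted p = 2.95e-15). The gene e (ebony), an enzyme that couples dopamine to beta-alanine in the tanning of cuticle, had an effect of 1.05 at 24 h and -2.69 at 72 h. TwdlE, a cuticle protein of the Tweedle family, had 1.67 and -2.71.

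The control arm carried each of these, with 4.14 for y, 3.46 for e and 4.48 for TwdlE, beside MMS arms of -0.51, -0.28 and 0.10. They were the only 3 of the list of 83 pigment and cuticle genes that were called lower at 2-fold, with 0 called higher. At an unadjusted p under 0.05 the limma counts of that list were 9 lower and 6 higher, against 9.71% and 14.6% of all genes, and its median change was -0.08. TwdlE lay at the 3.5th percentile of all genes in Control 24 h cultures, where RMA compresses differences. CG42240, a gene of no role known here, lay between 8.89 and 9.79 in MMS 72 h cultures, against 8.89 to 10.15 in Control 72 h cultures, and between 9.04 and 9.76 in MMS 24 h cultures, against a mean of 4.85 ± 0.28 (SD, n = 4) in Control 24 h cultures. Its effect of 4.47 at 24 h was -0.42 at 72 h (limma adjusted p = 0.0959).

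MtnA, a metallothionein that binds copper and other metals, moved in opposite directions in the arms. It read 8.72, 8.75, 9.09 and 10.11 in MMS 24 h cultures, against 6.99, 7.22, 6.93 and 7.64 in Control 24 h cultures. At 72 h it read 7.33, 7.74, 7.08 and 7.06 in MMS cultures, against 9.59, 9.25, 9.13 and 8.14 in controls. The order of the groups reversed without overlap (MMS arm -1.87, control arm 1.83, change -3.70 ± 0.41, limma adjusted p = 3.86e-08). Gr94a, a gustatory receptor gene, had an MMS arm of -1.87 and a control arm of 2.28. In 2 further genes chosen after their values were seen, vir-1, a gene induced by virus infection, and CG8620, the effect was 1.54 and 1.17 at 24 h and -1.04 and -1.03 at 72 h.

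Immune genes had no common direction. Of 27 genes of Imd and Toll immunity 4 had a higher and 2 a lower effect at 72 h at the adjusted p alone (9.13% and 4.53% of all genes). The median change was 0.08, and the counts were 3 and 3 under centring. In the genes named next, both arms rose and controls rose further. PGRP-LF, an inhibitor of the Imd pathway, read 7.37, 7.03, 6.87 and 7.33 in MMS 72 h cultures, against 8.51, 8.37, 8.39 and 8.54 in Control 72 h cultures, with 5.11 to 5.71 on all 24 h arrays. Both arms rose, by 1.56 and 3.21 (MMS arm, then control arm). NimC1, a phagocytosis receptor of hemocytes, had an MMS arm of 0.82 and a control arm of 2.30, and an effect of -1.31 at 72 h. Obp49a, an odorant-binding protein, had arms of 1.25 and 3.41.

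Pxn, the peroxidasin that crosslinks collagen in basement membranes, was the single gene with a higher effect whose arms moved 2-fold in opposite directions. It read 7.86, 7.90, 7.47 and 7.35 in MMS 24 h cultures, against 8.76, 8.51, 8.10 and 8.12 in Control 24 h cultures. Its 72 h readings were 8.78, 8.79, 8.64 and 8.73 in MMS cultures, against 7.18, 7.38, 7.47 and 7.23 in controls, without overlap at either time (change 2.15 ± 0.25, limma adjusted p = 1.12e-07). With the mean of its 2 probe sets the change was 0.99. Among 23 hemocyte markers 6 had a higher and 5 a lower effect at 72 h at the adjusted p alone (9.13% and 4.53% of all genes). Under centring the counts were 5 and 6. In the MMS arm 17 rose, and in the control arm 12 (22.3% and 15.0% of all genes).

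The effects gained at 72 h were led by arg, the fly arginase, which splits arginine into ornithine and urea. It read 5.80, 5.76, 5.89 and 5.96 in MMS 24 h cultures, against 5.60, 5.67, 5.89 and 6.09 in Control 24 h cultures. By 72 h the readings were 8.98, 9.20, 8.90 and 9.12 in MMS cultures, against 5.81, 5.44, 5.98 and 5.50 in controls. The groups overlapped at 24 h and were far apart at 72 h (MMS arm 3.19 ± 0.13, control arm -0.13 ± 0.13, change 3.33 ± 0.19, limma adjusted p = 5.29e-15). Fmo-1, a flavin-containing monooxygenase, had an MMS arm of 3.15 and a control arm of 0.03. Sid, a stress-induced DNase, had 2.85 and -0.07, and Atet, an ABC transporter, had 2.76 and -0.06.

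Among metabolic genes, Pepck1, a phosphoenolpyruvate carboxykinase of gluconeogenesis, read 9.16, 8.94, 8.97 and 8.82 in MMS 24 h cultures, against 10.63, 10.36, 10.35 and 10.47 in Control 24 h cultures. The 72 h arrays gave 11.40, 11.27, 11.54 and 11.51 in MMS cultures, against 11.34, 11.36, 11.40 and 11.60 in controls, so the groups overlapped only at 72 h. Both arms rose, by 2.46 in the MMS arm and 0.97 in the control arm (change 1.49 ± 0.14, limma adjusted p = 1.18e-09), and the effect was 0.01 at 72 h, where it was not called, against -1.48 at 24 h. Pepck2, of the same function, rose in treated cultures only (1.57 in the MMS arm and -0.07 in the control arm). Of 18 genes of glycolysis and gluconeogenesis 4 had a higher and 5 a lower effect at 72 h at the adjusted p alone (3 and 7 under centring), with a median change of -0.10.

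In fat metabolism, the gene whd, the carnitine palmitoyltransferase that admits fatty acids to mitochondria, had an MMS arm of 1.60 and a control arm of 0.32, but its change of 1.28 was 0.55 with the mean of its 2 probe sets. The gene mdy, a diacylglycerol acyltransferase, read 9.03, 8.93, 9.07 and 8.88 in MMS 72 h cultures, against 7.24, 7.52, 7.65 and 8.12 in Control 72 h cultures, with overlap at 24 h (change 1.28 ± 0.18, limma adjusted p = 2.67e-06). Of 24 genes of lipid storage and fatty-acid oxidation 9 had a higher and 1 a lower effect at 72 h at the adjusted p alone (9.13% and 4.53% of all genes). Their median change was 0.27, and the counts were 6 and 1 under centring.

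Gs1, the mitochondrial glutamine synthetase, and Cth, the cystathionine gamma-lyase that yields cysteine for glutathione, gained an effect mainly on the control side. Gs1 read 10.14, 10.18, 9.87 and 9.86 in MMS 24 h cultures, against 10.69, 10.59, 10.56 and 10.58 in Control 24 h cultures. After 72 h the values were 10.80, 10.24, 10.62 and 10.72 in MMS cultures, against 9.27, 9.33, 9.68 and 10.08 in controls. The order of the groups reversed without overlap (MMS arm 0.58, control arm -1.01, change 1.60 ± 0.19, limma adjusted p = 1.09e-07). Cth had a control arm of -1.10 and an MMS arm of 0.19. Of 23 genes that serve the integrated stress response or supply amino acids, 7 had a higher and 2 a lower effect at the adjusted p alone. The shares of all genes were 9.13% and 4.53%, and the median change of the list was 0.24.

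A few redox genes outside the glutathione S-transferases had a higher effect at 72 h. Sod3, an extracellular superoxide dismutase, read 6.49, 6.95, 6.98 and 6.50 in MMS 72 h cultures, against 4.86, 4.83, 4.77 and 4.92 in Control 72 h cultures, with 4.55 to 5.03 on all 24 h arrays (change 1.77 ± 0.16, limma adjusted p = 6.16e-10, and 0.87 with the mean of its 2 probe sets). Keap1, which holds the transcription factor CncC in check, read 9.26, 9.07, 9.17 and 9.37 in MMS 72 h cultures, against 7.92, 7.89, 7.96 and 7.90 in Control 72 h cultures. Its 24 h arrays lay between 7.82 and 8.31 in both groups, and the change was 1.24 ± 0.20 (limma adjusted p = 2.76e-05). MsrA, a methionine sulfoxide reductase, had arms of 0.43 and -0.98 (MMS arm, then control arm). Sod3, Keap1 and MsrA belong to a list of 20 genes of glutathione synthesis and thiol antioxidants. That list had no common direction, with 5 higher and 4 lower (4 and 4 under centring) and a median change of 0.02. Tsf3, a transferrin from the list of metallothioneins and iron storage, had arms of 1.54 and 0.15.

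Some genes rose in both arms and more in treated cultures. The gene nw (narrow) had arms of 3.67 and 1.46, CG30345 had 3.16 and 1.09, and Idgf1, a secreted growth factor of the chitinase family, had 3.11 and 1.09. Among lysosomal genes CtsL1, a cathepsin, had a change of 0.91 ± 0.09 and Npc2a, a sterol carrier of the lysosome, a change of 1.12 ± 0.18. In the list of autophagy and lysosome 8 of 36 genes were higher and 1 lower, and 5 and 2 under centring.

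Genes of DNA replication and of mitosis had lower levels in treated cultures at 24 h, and at 72 h the levels of controls had come down to a similar range. Of 42 replication genes 27 had a higher and 0 a lower MMS effect at 72 h at the adjusted p alone (9.13% and 4.53% of all genes). Their median change was 0.85. At an unadjusted p under 0.05 from limma the counts were 34 and 0 (14.6% and 9.71% of all genes). At the adjusted p alone 32 genes fell and 1 rose in the control arm (14.9% and 15.0% of all genes), which had a median of -0.80. In the MMS arm 7 fell and 5 rose (19.9% and 22.3% of all genes), with a median of 0.04. The median MMS effect was -1.01 at 24 h and -0.16 at 72 h. At 2-fold, 14 of the 42 were called higher (2.76% of all genes), of which 5 moved in the control arm only, 2 in the MMS arm only and 7 in neither arm.

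The mean level of the 42 replication genes shows the move on each array. It was 8.75, 8.73, 8.62 and 8.58 on MMS 24 h arrays, against 9.49, 9.51, 9.52 and 9.50 on Control 24 h arrays. On the 72 h arrays it was 8.83, 8.54, 8.63 and 8.88 in MMS cultures, against 8.58, 8.64, 8.89 and 9.16 in controls. The groups were separate at 24 h and overlapped at 72 h, where the control arrays spread over a wider range than at 24 h. Among 33 genes of mitosis and cytokinesis 20 were higher and 0 lower (24 and 0 at an unadjusted p under 0.05), with medians of 0.16 in the MMS arm and -0.66 in the control arm. The median change of both lists stayed above 0 under centring, the further quantile normalization, the mean of probe sets and the leaving out of each of the 16 arrays. Over the arrays left out it lay between 0.75 and 0.96 for replication and between 0.57 and 0.73 for mitosis. Under centring the MMS arm medians were -0.15 and -0.02, on the other side of 0.

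Single members show how this looked array by array. Cdk2, the kinase that starts S phase with cyclin E, read 6.88, 6.77, 7.00 and 7.11 in MMS 24 h cultures, against 8.13, 8.28, 8.37 and 8.36 in Control 24 h cultures. At 72 h it read 6.99, 6.98, 7.01 and 6.99 in MMS cultures, against 6.93, 6.94, 7.25 and 7.50 in controls. The groups overlapped at 72 h only, and the change was 1.18 ± 0.17 (limma adjusted p = 5.58e-06), made of 0.05 in the MMS arm and -1.13 in the control arm. Prim2, a subunit of the DNA primase, had arms of 0.03 and -1.14. After a further quantile normalization the changes of Cdk2 and Prim2 were 0.85 and 0.89, under the 2-fold threshold.

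The kinesin ncd, which focuses spindle poles, read 8.72, 8.74, 8.34 and 8.32 in MMS 24 h cultures, against 10.61, 10.53, 10.47 and 10.42 in Control 24 h cultures. Its 72 h readings were 9.02, 8.61, 8.55 and 8.97 in MMS cultures, against 9.06, 9.29, 9.50 and 9.80 in controls. Controls fell to within 0.63 of the treated level without overlap, and the change was 1.35 ± 0.19 (limma adjusted p = 3.32e-06). RecQ4, a helicase of replication, had arms of 0.37 and -1.10, sunn, a cohesion gene of meiosis, had 0.18 and -1.16, and tej, a piRNA pathway gene, had 0.22 and -1.17. The cytokinesis gene tum had 0.34 and -0.93.

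Other members returned by way of the treated arm. Orc1, a subunit of the origin recognition complex, read 7.71, 7.91, 7.30 and 7.43 in MMS 24 h cultures, against 8.87, 8.71, 8.46 and 8.67 in Control 24 h cultures. By 72 h the readings were 8.81, 8.38, 8.86 and 8.86 in MMS cultures, against 8.40, 8.58, 8.37 and 8.98 in controls, and the groups overlapped. Its MMS arm was 1.14 and its control arm -0.10 (change 1.24 ± 0.19, limma adjusted p = 1.09e-05). The cytokinesis regulator pbl had arms of 1.14 and -0.38. In swa and topi, known from the germline, both arms stayed under 2-fold, with 0.77 and -0.90 in swa and 0.70 and -0.84 in topi (MMS arm, then control arm).

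Several lists moved strongly over time and alike in treated and control cultures, so that few of their genes were called for the change. Of 69 mitochondrial ribosomal protein genes 65 fell in the MMS arm and 57 in the control arm at the adjusted p alone (19.9% and 14.9% of all genes). Of these, 34 and 28 fell at least 2-fold (2.83% and 2.89% of all genes). The MMS effect at 72 h was higher for 1 and lower for 2 (9.13% and 4.53% of all genes). Of 28 proteasome genes 25 fell in each arm, both with a median of -0.64, and 1 passed for the change at the adjusted p alone. The 63 genes of the respiratory chain and ATP synthase had medians of -0.56 and -0.70. The 34 cytosolic ribosomal proteins moved less, with a median of -0.16 in each arm, and not alike in their counts. At the adjusted p alone 16 fell in the MMS arm and 2 in the control arm (19.9% and 14.9% of all genes). For the change limma called 0 of them, and 0 passed at an unadjusted p under 0.05.

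**Figure D4:**
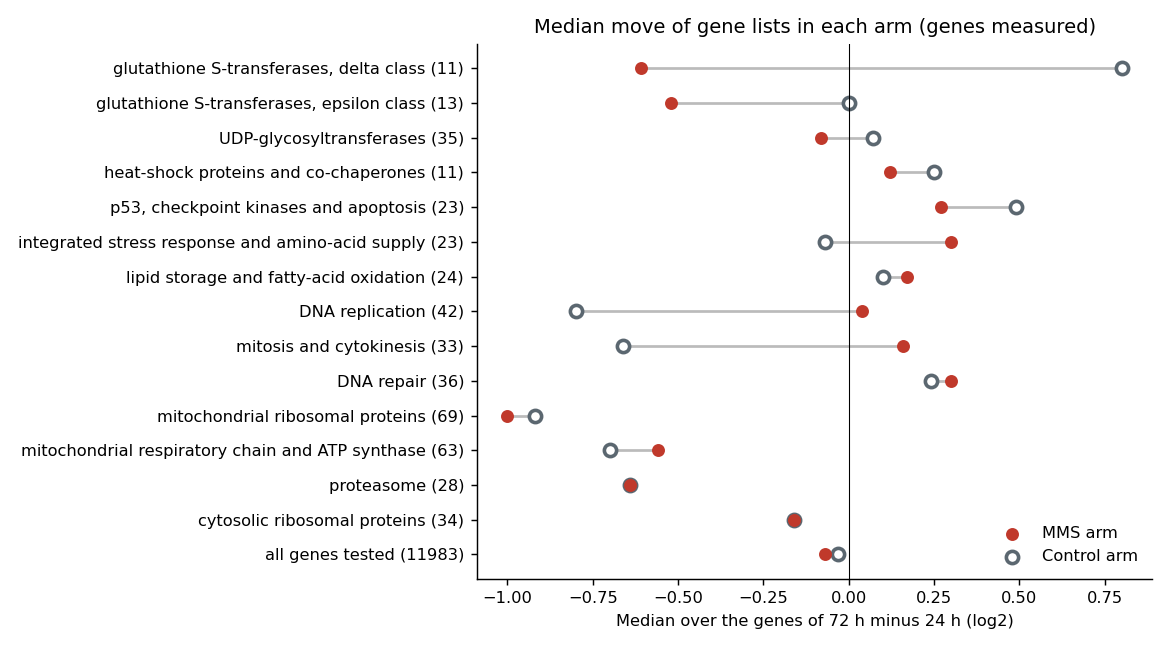
For 14 gene lists and for all genes, the median over the genes of 72 h minus 24 h (log2) is shown in the MMS arm (filled) and the control arm (open), with the number of genes measured in brackets. Replication and mitosis genes lie near 0 in the MMS arm and at -0.80 and -0.66 in the control arm, delta glutathione S-transferases lie at -0.61 and 0.80, and proteasome genes at -0.64 in both arms.

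The MMS effect at 8 h rests on other arrays than those that chose the genes. Of the 110 genes whose effect was lower at 72 h than at 24 h, 36 (32.7%) were already higher in MMS than in control cultures at 8 h and 0 were lower in limma's test, against 1.01% and 0.309% of all genes, and at the adjusted p alone 76 (69.1%) were higher, against 8.85% of all genes. In the 54 of these that moved in the control arm only, 18 were higher at 8 h at 2-fold and 38 at the adjusted p alone. Controls of these genes also differed between earlier times, as 34 of the 110 (30.9%) were higher in Control 8 h than in Control 0 h cultures, against 3.92% of all genes, and 2 were lower, against 1.97%. The median over the 110 genes was 0.63 for Control 8 h minus Control 0 h and 0.22 for Control 24 h minus Control 0 h. The Control 24 h arrays are among those that chose the genes, and a low level there favours the choice. The smaller value at 24 h is therefore given as a description. GstD5 averaged 12.37 in MMS 8 h cultures, against 7.71 in Control 8 h cultures, and its controls averaged 5.09 at 0 h and 6.87 at 24 h.

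The genes whose effect was higher at 72 h were more often lower than higher in MMS cultures at 8 h. Of the 331, 3 (0.906%) were higher and 13 (3.93%) lower in MMS 8 h cultures at 2-fold, against 1.01% and 0.309% of all genes, and 115 (34.7%) were lower at the adjusted p alone, against 11.5% of all genes. Among the 184 that moved in the MMS arm only, the median effect was 0.01 at 1 h, -0.08 at 8 h and -0.16 at 24 h. Among the 21 that moved in the control arm only, 16 were lower at 8 h at the adjusted p alone, with a median of -0.72. The 8 h arrays stood apart from the others in an RNA quality measure, the mean difference between 3' and 5' probe sets of 3 control transcripts, which was 1.42 to 1.67 there, and in the level of an 18S rRNA probe set (12.63 to 13.07, above every other array), and their part in the 8 h counts was not tested.

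**Figure D5:**
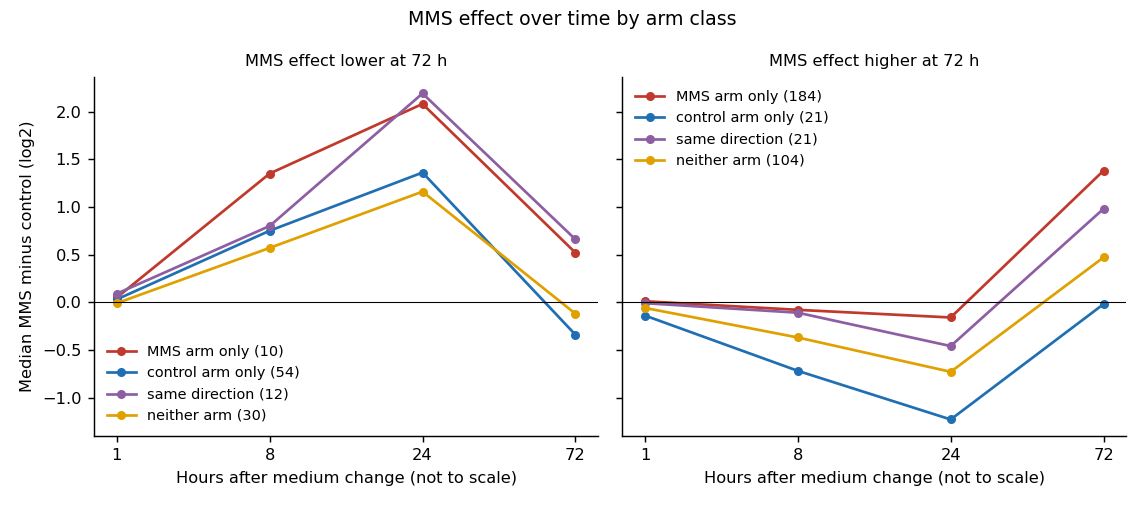
The median MMS effect (MMS minus control, log2, y axis) of the genes in each arm class is shown at 1, 8, 24 and 72 h for effects that were lower (left) and higher (right) at 72 h, without the 5 genes that moved in opposite directions. The 24 and 72 h points were used to choose the genes and the 1 and 8 h points were not, and at 8 h the medians on the left run between 0.57 and 1.35 and those on the right between -0.72 and -0.08.

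The pattern of the effect at each time adds to the arms. At 24 h 287 genes were higher and 198 lower in MMS cultures (2.4% and 1.65% of all genes), and at 72 h 429 were higher and 80 lower (3.58% and 0.668%). At the adjusted p alone the shares were 10.2% and 10.0% at 24 h and 17.0% and 12.5% at 72 h. Of the 110 genes with a lower effect at 72 h, 45 were higher at 24 h and not called at 72 h, 20 were higher at both times, 8 were higher and then lower, and 17 were lower at 72 h only. Of the 331 with a higher effect, 133 were higher at 72 h only, 74 were lower at 24 h and not called at 72 h, 14 were higher at both times and 2 were lower and then higher. The genes nearest to the 2-fold threshold were scb and Gnmt on its inner side and htk and CG3430 on its outer side, all with a change of 1.00 after rounding.

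Some array measures moved with the groups. The median over all genes was 5.67 to 5.77 on MMS 72 h arrays, against 5.54 to 5.56 on Control 72 h arrays, and the 3' to 5' difference was 0.69 to 0.72, against 0.54 to 0.63 (exact permutation test, two-sided, p = 0.0286 for each, the smallest that 4 against 4 arrays allow). At 24 h that difference was 0.54 to 0.61 in MMS and 0.50 to 0.58 in control cultures (exact p = 0.2571). Their part in the 331 higher and 110 lower calls was not tested beyond the centring given above. Of 75 genes that moved in the control arm only, Control 72 h replicate 4 was the control array nearest to the 24 h mean in 60, and of 194 that moved in the MMS arm only, MMS 72 h replicate 2 was the nearest treated array in 109. Without Control 72 h replicate 4 the higher genes of the control arm numbered 46 in place of 21, and without Control 72 h replicate 1 they numbered 10.

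All 15 hemocyte markers were measured, and at most 1 lay below the array median in any of the 4 groups. The change was called for 7 of the 15, against 3.68% of all genes. It was higher in Pxn, eater, ush and Pvr and lower in NimC1, He and Sr-CI. The mean level of the 15 was 8.48 to 8.74 on MMS 24 h, 8.86 to 9.38 on Control 24 h, 9.47 to 9.87 on MMS 72 h and 9.72 to 9.99 on Control 72 h arrays. Markers of muscle and of fat body and gut (5 measured of each) all lay below the array median. The mean level of 6 germline markers was 5.38 to 5.65 on MMS 24 h arrays, against 6.08 to 6.15 on Control 24 h arrays. At 72 h it was 5.28 to 5.81 on MMS arrays, against 5.96 to 6.08 on control arrays, so this mean was lower in treated cultures without overlap at both times. At 72 h the gap lay mostly in AGO3, with 5.79 in MMS and 8.55 in control cultures. The markers piwi (4.59 against 4.40) and bam (5.98 against 5.38) were higher in MMS 72 h cultures. The wider list of 14 germline and piRNA genes averaged 6.66 in MMS 72 h and 6.58 in Control 72 h cultures. The change was called for 1 of the 6 markers, bam, a gene of germline differentiation (1.33, limma adjusted p = 0.00011), and the part of these markers in the results was not tested. Of 7 neuron markers the change was called for elav alone, an RNA-binding protein of neurons, whose level was 7.17, 7.34, 7.73 and 7.55 in MMS 72 h cultures, against 5.75, 5.81, 5.48 and 5.46 in Control 72 h cultures, with a change of 1.08 that was 0.97 under centring. The tubulin betaTub56D, often used as a reference gene, fell by 1.14 in the MMS arm and by 0.24 in the control arm.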

How the data were processed

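RNA of Kc167 cells was hybridised to Affymetrix Drosophila Genome 2.0 arrays, 1 array per culture, in 9 groups of 4. The authors deposited log2 values made with RMA, which corrects background, normalizes across arrays by quantiles and summarises the probes of each probe set. Shifts shared by all genes are reduced by this, though array medians still differed, and differences of dim genes are compressed. The deposited values ran between 2.67 and 14.74 on the log2 scale, with array medians of 4.47 to 4.66 over 18952 probe sets. Arrays carry no read depth, so that precision is limited by their number.

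Of the probe sets 13647 were annotated to 1 gene, 402 to several genes and 4720 to none, and 183 were Affymetrix controls. Probe sets with 1 gene were used, with the brightest kept where a gene had several (1094 genes), which left 11983 genes. Symbols were looked up in a RefSeq gene table of assembly Release 6 plus ISO1 MT, in which 103 probe-set gene IDs were not found, and its coordinates were not used.

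Group means of all 36 arrays were fitted with limma 3.58.1 in R 4.3.3 (27 residual and 5.37 prior degrees of freedom) and contrasts were adjusted by Benjamini-Hochberg over all genes. The procedure was tested on simulated data. Genes were named by rank within each arm class, direction and list, with those chosen after their values were seen named as such. The genes, the lists and the split by arm were chosen with earlier results of these data known. Entries of the lists whose old symbol matched an unrelated gene were corrected. Alternatives were other sets of arrays, centring, a further quantile normalization, the replicate number as a block, the mean of probe sets, a filter on level, an intensity trend, the adjusted p alone and the leaving out of each array. After seeing the data, 2 other definitions of the arm classes and fits of a comparison's 8 arrays alone were added.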

Additional observations from a re-analysis of the deposited data

Results flagged for a closer look

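The difference of the MMS effect between the 24 h and 72 h groups was itself tested and passed for 331 genes that were higher and 110 genes that were lower at 72 h. In 10 genes the MMS effect was called in opposite directions at 24 h and at 72 h. It turned from higher to lower in GstD2 (change -5.73), y (-4.65), TwdlE (-4.38), e (-3.74), MtnA (-3.70), Cyp28a5 (-2.83), vir-1 (-2.58) and CG8620 (-2.20), and from lower to higher in Sesn (2.56) and Meltrin (2.29).

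A single array lay far from the other 3 of its group in 16 of 308 groups of 4 arrays examined over 77 genes. Chance flags about 1 in 20 groups, and neighbouring genes on 1 array are not independent. Control 72 h replicate 4 was such an array for Cyp28a5 (8.40), Sesn (7.82), CtsL1 (13.66) and Ugt37C2 (7.68). MMS 72 h replicate 3 was one for GstD2 (9.05), Obp49a (8.64) and CG3635 (8.49), and MMS 72 h replicate 2 for Orc1 (8.38) and CG3430 (8.16). The remaining arrays were MMS 24 h replicate 4 for e (6.10), MMS 24 h replicate 1 for Cyp6a14 (6.45), Control 24 h replicate 2 for TwdlE (3.49), Control 24 h replicate 3 for Cyp4p1 (6.48), Control 24 h replicate 1 for NimC1 (6.09) and Cyp6a13 (4.21), and Control 72 h replicate 3 for Hsp27 (10.22).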

How the results depend on the processing

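No named gene's change reversed under the alternatives run, but the balance of higher and lower calls turned in lists with few calls each way, among them DNA repair (6 and 4, against 5 and 8 with each array centred and 2 and 9 after a further quantile normalization) and hemocyte markers (6 and 5, against 5 and 6 with each array centred). The 16 arrays of 24 and 72 h gave 337 higher and 109 lower genes, and the mean of probe sets 305 and 107. With each array centred, 149 genes were called lower in MMS than in control cultures at 72 h in place of 80, 24 lower genes moved in the MMS arm only, and 68 higher and 51 lower genes moved in neither arm. After a further quantile normalization, which gave 233 higher and 150 lower genes, these were 141, 24, 60 and 47, with 13 higher genes in the control arm only and 3 in opposite directions. Of the calls, 367 of 417 and 340 of 383 were shared with the unaltered values under these scalings. The cause was not tested.

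At the adjusted p alone, fewer conditions apply and the counts were 1094 and 543 for the change, 2676 and 2385 for the MMS arm, 1795 and 1787 for the control arm, 1221 and 1200 at 24 h, and 2039 and 1493 at 72 h (higher, then lower). By arm they were 484 and 173 (MMS arm only), 245 and 171 (control arm only), 247 and 134 (same direction), 10 and 16 (neither) and 157 (opposite). By the larger arm, 24 lower genes went to the MMS arm, and 77 higher and 86 lower genes to the control arm, and with an arm at least 2 times the other 51 higher genes went to the control arm.

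Leaving out each array gave 290 to 406 higher and 107 to 130 lower genes, 629 to 781 and 296 to 376 in the MMS arm, and 315 to 429 and 305 to 404 in the control arm. The control arm alone carried 10 (without Control 72 h replicate 1) to 46 (without Control 72 h replicate 4) higher genes, and 3 (without MMS 24 h replicate 4) to 7 genes moved in opposite directions. With the replicate block the counts were 329 and 110, all 439 shared. Same-numbered arrays deviated with correlations of 0.356 to 0.529 between MMS 24 h and Control 24 h and of 0.22 to 0.283 between Control 72 h and Control 24 h. Arrays of unlike number ran from -0.489 to 0.5 and from -0.498 to 0.527 in these comparisons, so pairing by number there stayed unsettled. Same-numbered values were -0.294 to -0.015 between MMS 72 h and Control 72 h and -0.546 to 0.012 between MMS 72 h and MMS 24 h. Only 5 of 16 arrays correlated best with their own number, so the numbers were not taken to pair arrays in the change. The comparisons at 24 h and in the control arm, fitted on their 8 arrays alone with the replicate block, a choice made after seeing the data, gave 289 and 198 genes and 357 and 347 genes (288 and 198, and 357 and 347, without it). Dim genes have compressed differences, and among genes above the median level 258 were higher and 94 lower.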
